A study of Homo sapiens with 4 samples.

Results

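The genes described here are 30 genes of cholesterol and fatty acid synthesis, chosen by name as members of these pathways, out of 13165 genes in the table of the series. The choice was made with earlier results of these data known. They comprise 17 enzymes of the sterol branch, 6 genes that regulate the pathways or carry sterol, and 7 enzymes of the fatty acid branch. Their expression was compared between TPC1-Vector and TPC1-INAVA cells. TPC1 is a cell line established from a human papillary thyroid carcinoma. TPC1-Vector cells carry the empty vector, and TPC1-INAVA cells carry the same kind of vector with INAVA, the innate immunity activator gene, listed in the table under its older symbol C1orf106. INAVA was introduced by transfection according to the labels and by retroviral infection according to the methods of the study. Both sources describe stable lines selected with 0.5 μg/mL puromycin, grown in DMEM with 10% fetal bovine serum. The sources used here do not state whether a line is a pool of cells or a clone, nor how many independent selections were made. RNA-seq was performed on 2 libraries per group, 4 in all.

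The table holds 1 value per gene and group, in FPKM, a fragment count divided by the length of the transcript and by the number of mapped fragments. Because FPKM is given per length of transcript, levels can be compared between genes. The libraries of a group were combined by the authors, so no value below has an SD or a replicate check, no test was run, and the number of fragments behind a value is unknown. Changes are given as the difference of log2(FPKM + 0.5), TPC1-INAVA minus TPC1-Vector, and a negative value means a lower level in TPC1-INAVA. Fold values written as such are plain ratios of the FPKM values. A gene was counted as higher or lower in TPC1-INAVA when this log2 difference was at least 0.32 in either direction, and it is said to have passed the threshold. The 12305 genes averaging 0.5 FPKM or more over the groups, all 30 members among them, had a median log2 difference of 0.0033. Their 5th and 95th percentiles were -0.38 and 0.40. INAVA itself was at 7.96 FPKM (TPC1-Vector) and 123 FPKM (TPC1-INAVA). Of 10 thyroid markers, 3 had values, and these are transcription factors of the thyroid lineage, PAX8 at 60.1 and 55.7 FPKM, FOXE1 at 5.26 and 5.89 FPKM and HHEX at 8.33 and 10.0 FPKM, in TPC1-Vector and TPC1-INAVA. TG and TSHR, which define differentiated thyroid cells, had no row here. Of 6 epithelial markers, 3 had values, the keratins KRT8 at 23.4 and 10.5 FPKM, KRT18 at 140.3 and 212 FPKM and KRT7 at 1.97 and 2.01 FPKM. Of 14 markers of other cell types, 3 had values, and they summed to 0.645 and 1.20 FPKM for blood and to 1.32 and 0.795 FPKM for fibroblasts. The part of these differences in the results below was not tested.

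Cholesterol is built from acetyl-CoA through mevalonate, the isoprenoid farnesyl diphosphate, squalene and lanosterol. Fatty acids are built from the same acetyl-CoA by carboxylation, chain extension, elongation and desaturation. Both pathways are controlled by the SREBP transcription factors, which SREBF1 and SREBF2 encode. SCAP escorts the SREBP precursors from the endoplasmic reticulum to the Golgi for cleavage when sterols are scarce, and INSIG1 and INSIG2 hold them back when sterols are plentiful. SREBP-2 is best known for acting on genes of sterol synthesis and uptake, and the SREBP-1c form for acting on genes of fatty acid synthesis. SREBF1 and SCD are also textbook targets of LXR, a nuclear receptor that is activated by oxysterols.

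Promoter sequences from RefSeq on GRCh38.p14 are shown for the regulators and enzymes on which the comparison turns, with matches to motifs of SREBP target promoters in capitals. Capitals mark TCACNCCAC, a form of the sterol regulatory element, CCAAT, the NF-Y box, and GGGCGG, the GC box, on either strand. A match is marked only where all its bases are printed. CACGTG, the E-box, was searched too. Positions are counted from the RefSeq transcript start, so that -1 is the base before it. Only bases outside the exons of GENCODE 29 and outside the span of the gene in the deposited table are printed, except in SREBF2, for which the 30 bases around the sterol regulatory element are given. The SREBF2 stretch (chr22:41832962-41832991, forward strand) is shown because it holds the sterol regulatory element, which starts at position -133. The INSIG1 (chr7:155297628-155297775, forward strand), SREBF1 (chr17:17837012-17837236, reverse strand) and SCD (chr10:100346983-100347014, forward strand) stretches belong to the genes with the lowest log2 differences. The FDPS stretch (chr1:155308616-155308747, forward strand) is from a strongly expressed sterol enzyme with nearly equal values in the 2 groups.
SREBF2: tgacgcgccaTCACCCCACgcaccgcttcg
INSIG1: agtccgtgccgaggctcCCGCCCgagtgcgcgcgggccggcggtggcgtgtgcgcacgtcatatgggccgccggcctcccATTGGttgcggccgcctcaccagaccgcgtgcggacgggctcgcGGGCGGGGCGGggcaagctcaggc
SREBF1: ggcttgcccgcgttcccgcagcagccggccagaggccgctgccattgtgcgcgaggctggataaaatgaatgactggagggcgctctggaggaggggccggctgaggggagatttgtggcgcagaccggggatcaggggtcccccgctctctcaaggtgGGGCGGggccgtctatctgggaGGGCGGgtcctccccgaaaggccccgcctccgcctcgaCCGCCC
SCD: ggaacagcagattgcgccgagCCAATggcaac
FDPS: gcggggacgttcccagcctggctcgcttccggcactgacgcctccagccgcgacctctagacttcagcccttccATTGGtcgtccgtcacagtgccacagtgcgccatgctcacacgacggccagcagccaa

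Promoter windows of 250 bases before to 50 after the start were on hand for 27 members, 37 windows in all, and none for FDFT1, SQLE and FASN. The sterol regulatory element TCACNCCAC was present in 1 of the 37 windows, that of SREBF2, and in 1.13% of all 35116 windows of RefSeq. CCAAT was present in 24 of the 37 windows (64.9%) and in 34.6% of all windows. SCD had 2 CCAAT matches, at -229 and -186, the second beyond the bases printed. Its 2 GC boxes, at -33 and -11, also lie beyond them. FDPS had 3 CCAAT matches, at -176, -122 and -51, and 1 GC box, at -22. Of these, the match at -176 is printed in full, and the printed stretch ends inside the match at -122. MVK and NSDHL had the most CCAAT matches in a window, 5 each. GGGCGG was present in 33 of the 37 windows (89.2%), against 45.0% of all windows, and CACGTG in 5 (13.5%), against 7.26%. All windows were counted whether or not their gene had a value here, whereas every member has one. Some members have more than 1 window. Among the regulators, INSIG1 had a CCAAT match, an E-box and 6 GC boxes in its window. SREBF1 had 3 GC boxes and no match to the other motifs in its 1 window. That window lies at the outermost start of SREBF1, and promoters further inside the gene were not searched. A match is a match of letters only, and a window without one says nothing about the factor.

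In TPC1-INAVA 5 of the 30 members were lower, namely SCD, INSIG1, SREBF1, EBP and FADS2, and 0 were higher. Of all 12305 genes, 6.74% were lower and 7.69% higher by this measure. The members are mostly strongly expressed, and of the 26 averaging 10 FPKM or more, 4 were lower and 0 higher, whereas 4.45% of the 6607 genes at that level were lower and 5.58% higher. At a 1.5-fold threshold, 3 members were lower, SCD, INSIG1 and SREBF1, against 1.45% of all genes. Because the members were chosen with earlier results of these data known, these counts are a description and not a test. The median log2 difference of the 30 members was -0.11, and 20 of them were below 0, as were 6049 of all 12305 genes. By branch, 1 of 17 sterol enzymes, 2 of 6 regulators and 2 of 7 fatty acid enzymes were lower. The medians were -0.038 for the sterol enzymes, -0.18 for the regulators and -0.19 for the fatty acid enzymes. The sterol median exceeded the fatty acid median by 0.15, with no estimate of error. Among the 23 members that overlap no other gene in the table, the medians were -0.069, -0.0091 and -0.17, and the difference was 0.099. The sterol median was -0.066 with quantile normalization and -0.074 with the median of the neighbours subtracted. The fatty acid median was then -0.22 and -0.24, and the difference was 0.15 and 0.16.

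**Figure D1:**
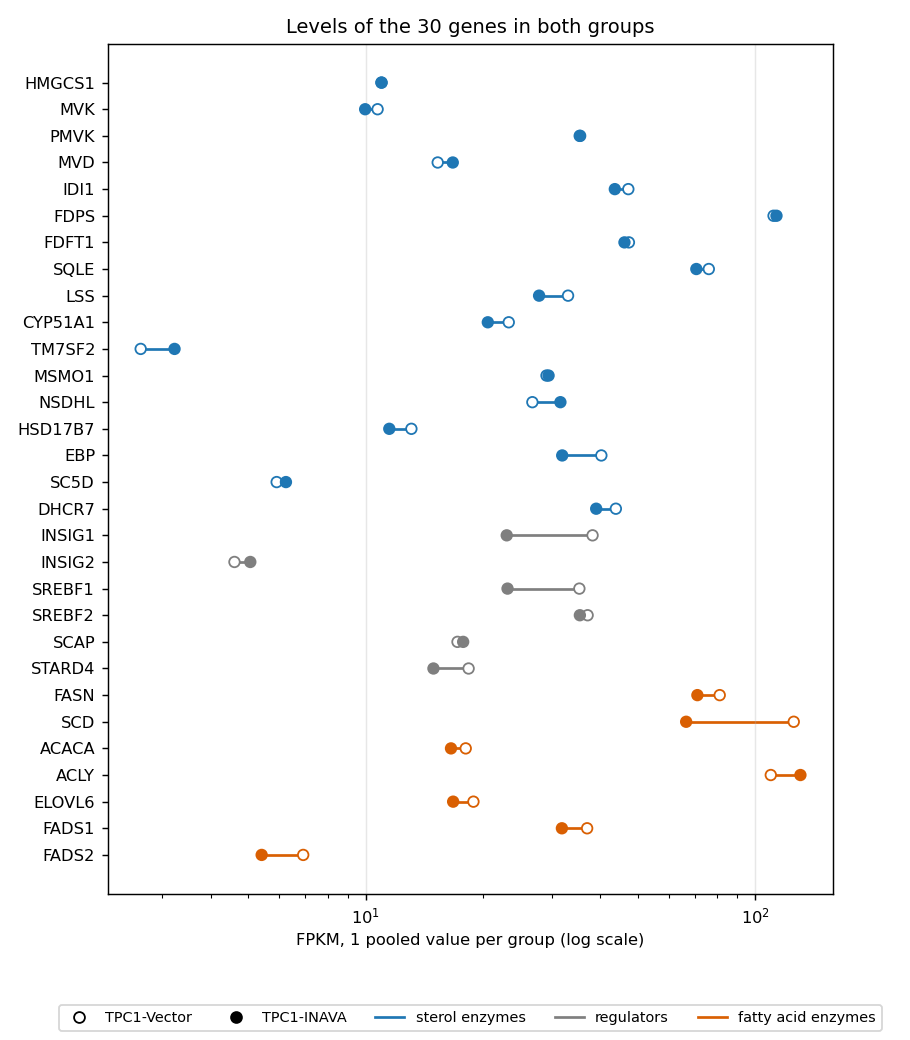
Level of each of the 30 genes in FPKM on a log axis, 1 pooled value per group, with open points for TPC1-Vector, filled points for TPC1-INAVA and colours for the branches. Most pairs of points nearly coincide, while those of SCD (126 and 66.5 FPKM), INSIG1 (38.2 and 23.0 FPKM) and SREBF1 (35.4 and 23.1 FPKM) are set well apart.

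Of the mevalonate steps, 0 of 6 genes passed the threshold in either direction, and their median log2 difference was 0.0011. HMGCS1, which condenses acetyl-CoA with acetoacetyl-CoA into HMG-CoA, was at 11.0 FPKM in both groups. The 2 kinases that follow, MVK and PMVK, were at 10.7 and 9.97 FPKM and at 35.4 and 35.5 FPKM. MVD, which makes isopentenyl diphosphate, was at 15.3 and 16.7 FPKM. These early enzymes thus stood at nearly the same level in the 2 groups. IDI1, the isomerase of isopentenyl diphosphate, was at 47.2 and 43.6 FPKM, and its position in the table overlaps IDI2 and IDI2-AS1. FDPS, which makes farnesyl diphosphate, was the most abundant sterol enzyme, at 111 and 113 FPKM. Its position overlaps RUSC1-AS1 and RUSC1, the latter at 30.2 and 27.9 FPKM. The 6 genes summed to 231 FPKM (TPC1-Vector) and 230.2 FPKM (TPC1-INAVA). The signs of HMGCS1, PMVK and FDPS, whose log2 differences were -0.0013, 0.0035 and 0.025, changed with the scaling of the columns or the subtraction of their neighbours.

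From squalene onwards, 7 of 11 enzymes were below 0 and 4 above, with a median of -0.11. Of all 12305 genes, 6049 were below 0 and 6256 above. FDFT1, the squalene synthase, was at 47.4 FPKM (TPC1-Vector) and 46.2 FPKM (TPC1-INAVA). SQLE, the squalene epoxidase and a rate-limiting step, was at 76.0 and 70.6 FPKM. These 2 enzymes at the entry to the sterol ring differed little. LSS, which closes the ring to lanosterol, was at 33.1 and 27.9 FPKM, a log2 difference of -0.24. CYP51A1, the lanosterol demethylase, was at 23.3 and 20.6 FPKM. HSD17B7, a ketoreductase of sterol demethylation, was at 13.1 and 11.5 FPKM, and DHCR7, which performs a last reduction to cholesterol, was at 43.9 and 39.1 FPKM. The log2 differences of these last 3 genes lay between -0.18 and -0.17, short of the threshold.

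EBP, the sterol isomerase, was the sterol enzyme past the threshold, with 40.3 FPKM (TPC1-Vector) and 32.0 FPKM (TPC1-INAVA), 1.26-fold lower. Its log2 difference of -0.33 was just past the threshold and was lower than those of all 51 expressed genes within 5 Mb, whose median was 0.0099. In the other direction stood NSDHL and TM7SF2. NSDHL, a dehydrogenase of sterol demethylation that lies on the same chromosome as EBP, was at 26.8 and 31.6 FPKM. TM7SF2, a sterol reductase, was the least expressed member, at 2.65 and 3.23 FPKM, and its position overlaps VPS51, at 23.5 and 24.1 FPKM. MSMO1, the methylsterol monooxygenase, was at 29.1 and 29.5 FPKM, and SC5D, a sterol desaturase, at 5.91 and 6.24 FPKM. Within the demethylation complex, NSDHL was thus above 0 and HSD17B7 below it, at log2 differences of 0.23 and -0.18, and MSMO1 was near 0, at 0.017, or -0.023 after subtraction of the median of its neighbours.

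Of the 6 regulators, INSIG1 and SREBF1 were lower and their partners were not. INSIG1, a membrane anchor of SCAP and a classical SREBP target gene, was at 38.2 FPKM (TPC1-Vector) and 23.0 FPKM (TPC1-INAVA), 1.66-fold lower, a log2 difference of -0.72. It ranked 98th from the lowest of the 12305 genes and below all 31 expressed neighbours within 5 Mb. INSIG2, its paralogue, was at 4.61 and 5.06 FPKM. The ratio of INSIG1 to INSIG2 was therefore 8.30 in TPC1-Vector and 4.55 in TPC1-INAVA, and multiplying a column by a single factor leaves this ratio unchanged.

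SREBF1, which encodes both SREBP-1 forms, was at 35.4 FPKM (TPC1-Vector) and 23.1 FPKM (TPC1-INAVA), 1.53-fold lower, a log2 difference of -0.60. It ranked 159th from the lowest. Its promoter stretch holds 3 GC boxes and no match to the sterol regulatory element printed for SREBF2. The stretch comes from the outermost start of the gene, and promoters further inside were not searched. The table gives 1 value for the gene, so its SREBP-1a and SREBP-1c transcripts, which start at different promoters, were not separated. In the table the position of SREBF1 takes in the whole of RAI1, which lies on the opposite strand and overlaps it at 1 end in GENCODE 29. RAI1 was at 6.16 and 6.42 FPKM. SREBF2 was at 37.1 and 35.5 FPKM, so the ratio of SREBF1 to SREBF2 was 0.952 in TPC1-Vector and 0.652 in TPC1-INAVA.

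SCAP, the escort of both SREBPs, was at 17.2 FPKM (TPC1-Vector) and 17.8 FPKM (TPC1-INAVA). The ratio of SCAP to INSIG1 was 0.450 and 0.773. STARD4, a cytosolic sterol carrier, was at 18.4 and 14.9 FPKM, and its log2 difference of -0.29 was just short of the threshold. Its position in the table overlaps that of NREP, at 10.7 and 14.1 FPKM. The 6 genes of this group summed to 151 FPKM (TPC1-Vector) and 119 FPKM (TPC1-INAVA).

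**Figure D2:**
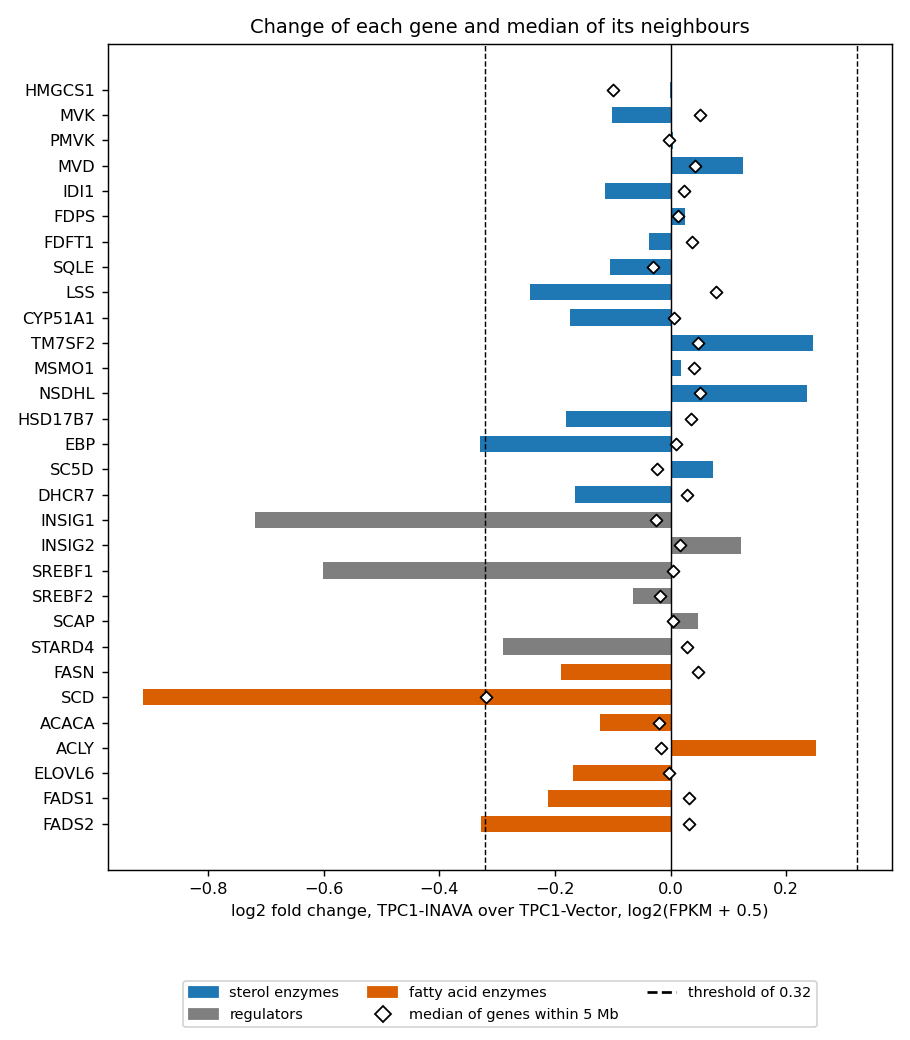
Log2 difference of each gene, TPC1-INAVA minus TPC1-Vector, as bars coloured by branch, with diamonds for the median of the expressed genes within 5 Mb and dashed lines at the threshold of 0.32. The bars of SCD, INSIG1 and SREBF1 reach past -0.60, and the diamond of SCD at -0.32 is the one set apart from 0.

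SCD, the stearoyl-CoA desaturase that makes oleic acid, had the lowest log2 difference of the 30 genes. It was at 126 FPKM in TPC1-Vector, the highest level of any member, and at 66.5 in TPC1-INAVA, 1.89-fold lower. The log2 difference of -0.91 ranked 45th from the lowest of the 12305 genes and 14th of the 6607 genes averaging 10 FPKM or more. SCD lies on the long arm of chromosome 10 (100347124 to 100364834 in GENCODE 29 on GRCh38), among genes that were lower together. Of the 81 genes averaging 1 FPKM or more within 5 Mb, 78 were below 0, with a median of -0.32. After that median was subtracted, SCD stood at -0.59, still past the threshold. The part of the neighbourhood in the difference of SCD was not tested. For the other 29 members the median of the neighbours lay between -0.10 and 0.078.

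Only 2 of these 81 neighbours had a lower log2 difference than SCD, HOGA1 and OLMALINC. OLMALINC is a long noncoding RNA gene that starts downstream of the SCD gene on the same strand (100373513 to 100454043). It was at 13.3 FPKM (TPC1-Vector) and 6.34 FPKM (TPC1-INAVA), a log2 difference of -1.01. HOGA1, a mitochondrial aldolase, was at 7.48 and 2.33 FPKM, at a distance of a few megabases from SCD.

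The enzymes that supply SCD with substrate differed less. ACLY, which makes cytosolic acetyl-CoA from citrate, was at 109.6 FPKM (TPC1-Vector) and 131 FPKM (TPC1-INAVA), and it was the fatty acid enzyme above 0, at 0.25. ACACA, the carboxylase that makes malonyl-CoA, was at 18.1 and 16.6 FPKM. FASN, the fatty acid synthase, was at 81.1 and 71.0 FPKM, and ELOVL6, which extends palmitate to stearate, was at 18.9 and 16.8 FPKM. The log2 differences of ACACA, FASN and ELOVL6 were -0.12, -0.19 and -0.17, none past the threshold. SCD was thus 1.55 times as abundant as FASN in TPC1-Vector and 0.936 times as abundant in TPC1-INAVA. The ratio of SCD to ACLY was 1.15 and 0.509.

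FADS1 and FADS2, the desaturases of polyunsaturated fatty acids, share a position in the table. FADS2 was at 6.92 FPKM (TPC1-Vector) and 5.41 FPKM (TPC1-INAVA), 1.28-fold lower, a log2 difference of -0.33. This was just past the threshold, and it was under it with a pseudocount of 1 and with quantile normalization. FADS1 was at 37.0 and 31.9 FPKM, a log2 difference of -0.21. Because the genes overlap, reads may have been divided between them. The third gene of the cluster, FADS3, went the other way, with 6.19 FPKM (TPC1-Vector) and 10.0 FPKM (TPC1-INAVA), a log2 difference of 0.66.

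When FPKM values were summed, the 7 fatty acid enzymes stood at 397 FPKM (TPC1-Vector) and 339 FPKM (TPC1-INAVA), and the 17 sterol enzymes at 573 and 549 FPKM. Without SCD, the other 6 fatty acid enzymes summed to 272 FPKM in both groups, in which the higher ACLY offset the lower values of the other genes. Without SCD and ACLY, the other 5 summed to 162 and 142 FPKM. SCD made up 31.6% of the sum of the fatty acid enzymes in TPC1-Vector and 19.6% in TPC1-INAVA. In TPC1-Vector SCD ranked first in level among the 30 genes, ahead of FDPS and ACLY, and in TPC1-INAVA it ranked 5th, behind ACLY, FDPS, FASN and SQLE. The desaturases SCD, FADS1 and FADS2 together were at 169.5 and 104 FPKM. The median log2 difference of the fatty acid enzymes, in contrast, hardly rested on SCD, with -0.18 without it.

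**Figure D3:**
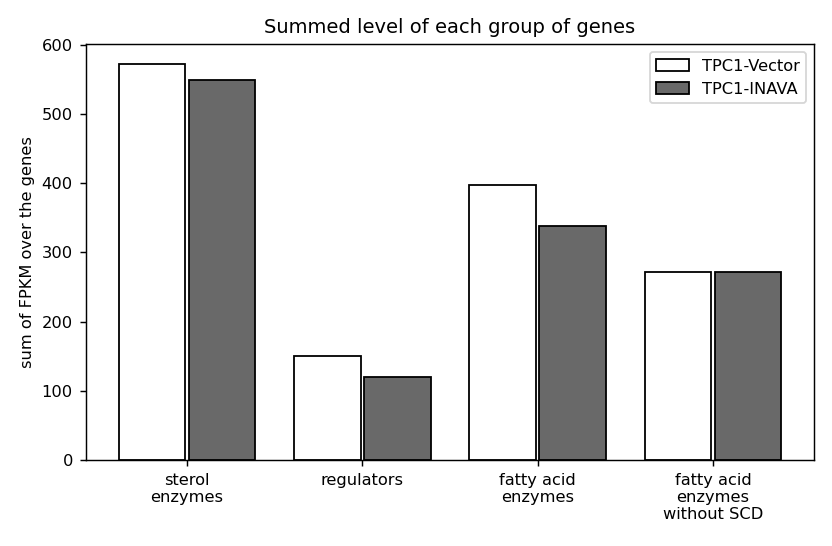
Sum of FPKM over the genes of each group, with white bars for TPC1-Vector and grey bars for TPC1-INAVA. The fatty acid enzymes stand at 397 and 339 FPKM, and without SCD the 2 bars are level at 272 FPKM.

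Genes of the pathways outside the 30 members were taken from lists of the same pathways. Of 23 other sterol genes kept by the filter, 2 were lower and 1 higher, with a median log2 difference of -0.020. Of all genes, 6.74% were lower and 7.69% higher, so these counts are near the background. NPC1, which exports cholesterol from lysosomes, was at 115 FPKM (TPC1-Vector) and 75.2 FPKM (TPC1-INAVA), a log2 difference of -0.61. VLDLR, a lipoprotein receptor, was at 7.46 and 5.17 FPKM, a log2 difference of -0.49. The medians of their neighbours were -0.046 and 0.087. In the table NPC1 overlaps C18orf8 and VLDLR overlaps the antisense gene VLDLR-AS1. The higher gene was IDI2, a paralogue whose position in the table overlaps that of IDI1, at 2.17 and 2.97 FPKM.

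The list of sterol efflux and LXR genes had a median of -0.24 over 8 genes, 3 of them lower and 0 higher, against 6.74% and 7.69% of all genes. MYLIP, a ubiquitin ligase for lipoprotein receptors, was at 6.97 FPKM (TPC1-Vector) and 5.18 FPKM (TPC1-INAVA). LPCAT3, which places polyunsaturated chains in phospholipids, was at 12.7 and 9.35 FPKM. NR1H3, which encodes the receptor LXR alpha, was weakly expressed, at 1.19 and 0.846 FPKM. Its log2 difference of -0.327 was just past the threshold, and its position in the table overlaps that of another gene. Of the 8 genes, 7 were below 0, as were 6049 of all 12305 genes. The other 5 genes were short of the threshold. ABCA1 and RXRB were at -0.29 and -0.20, and NR1H2 and RXRA near 0, at -0.039 and -0.024. APOE, weakly expressed at 0.921 and 1.21 FPKM, went the other way, at 0.27.

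Of 30 other genes of fatty acid synthesis and use, 5 were lower and 2 higher, against 6.74% and 7.69% of all genes, and the median was -0.020. LPIN1, a phosphatidate phosphatase, was at 24.9 FPKM (TPC1-Vector) and 17.7 FPKM (TPC1-INAVA), and PNPLA3, a lipase-like protein of lipid droplets, at 9.27 and 6.59 FPKM. MID1IP1, an activator of acetyl-CoA carboxylase, was at 31.1 and 22.9 FPKM, and ACSL3, an acyl-CoA synthetase, at 48.2 and 35.2 FPKM. These 4 genes had log2 differences between -0.48 and -0.43, further below 0 than any fatty acid enzyme other than SCD. The elongase ELOVL7 was at 6.08 and 4.68 FPKM. The genes past the threshold on the higher side were FADS3 and the weakly expressed elongase ELOVL4, at 0.778 and 1.16 FPKM. Short of it, ACSL1 and ACSL4, acyl-CoA synthetases like ACSL3, were each at 0.28, as was ACSS2. Of the 30 genes, 17 were below 0 and 13 above.

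**Figure D4:**
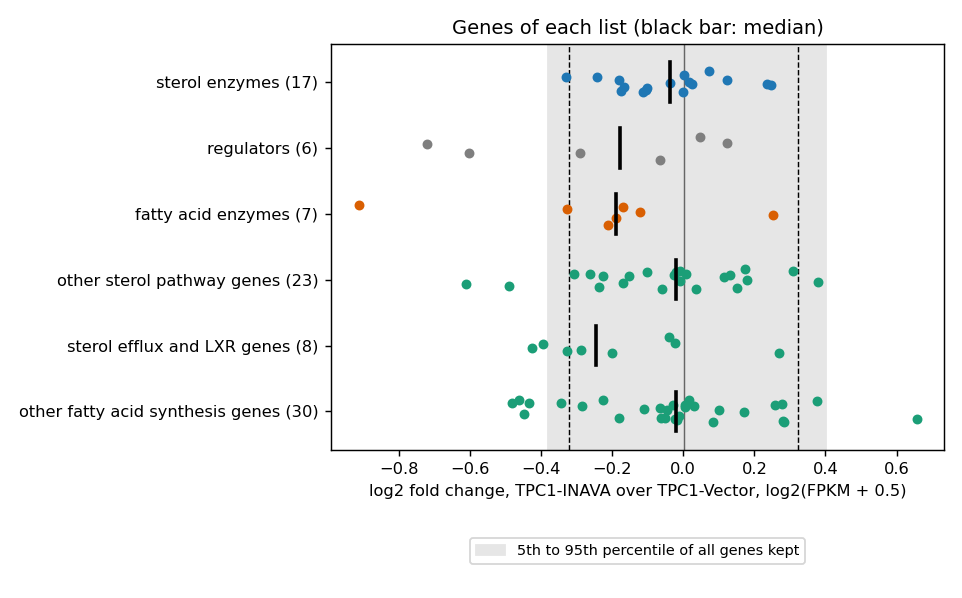
Log2 difference of every gene of the member groups and of the other lists, with the number of genes in brackets, a black bar for each median, dashed lines at the threshold of 0.32 and a grey band from the 5th to the 95th percentile of all 12305 genes. The sterol enzymes all lie inside the band, the fatty acid enzyme at the far left is SCD, and the efflux and LXR list has the lowest median at -0.24.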

How the data were processed

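RNA was extracted with Trizol from 2 TPC1-Vector and 2 TPC1-INAVA samples and sequenced on an Illumina platform. The sources differ on the library kit, the instrument and the way INAVA was introduced. In the table the authors deposited, each gene has 1 FPKM value for each group. The submitters' processing notes name CASAVA, Cufflinks 2.1.1, Cuffdiff and the build hg38, without their roles. The aligner and the annotation are not given in the sources used here. Columns with the authors' log2 ratio, direction, p-values and q-values were not used. With 1 value per group the planned limma test could not be run, and depth is unknown.

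Here, differences of log2(FPKM + 0.5) were taken for genes averaging 0.5 FPKM or more over the groups, and counted where they reached 0.32 in either direction. The members and lists were chosen with earlier results of these data known. The genes named are all 30 members, INAVA, genes of the other lists past this threshold, and genes that overlap or neighbour a member. C18orf8 and VLDLR-AS1, which overlap other genes named, fall outside this rule and were added after values were seen. So were the genes of the other lists that are named though short of the threshold. FADS3 belongs to the second kind. All thyroid and epithelial markers with values are named. GENCODE 29 gave positions for 12386 genes of the table, and neighbours were the genes averaging 1 FPKM or more within 5 Mb. ACACA and LSS are placed by the authors on alternate contigs of the build. Promoters came from the RefSeq table on GRCh38.p14. Alternatives were pseudocounts of 0.1 and 1, no filter, a filter at 1 FPKM, 2 scalings, subtraction of the neighbours' median, members without overlap and a 1.5-fold threshold. No pseudocount, the background of genes averaging 10 FPKM or more and leaving out SCD were chosen once values had been seen. Some genes of the fixed lists are not reported here and were left out of the counts of their lists. The fold computation was tested on simulated data without noise, which cannot tell how reliable a call from 1 value per group is. Python 3.11.15, numpy 2.4.6, pandas 2.3.3 and matplotlib 3.10.9 were used.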

Additional observations from a re-analysis of the deposited data

How the results depend on the processing

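No paired analysis was possible because the table has 1 value per group, and for the same reason leaving out each library was not run. The number of lower members, 5, was 3 at a 1.5-fold threshold, and also 3 among the 23 members that overlap no other gene in the table, because SREBF1 and FADS2 leave with the overlapping genes. Without all 7 overlapping members, the median log2 difference of the regulators was -0.0091 instead of -0.18. The sterol median then exceeded the fatty acid median by 0.099 instead of 0.15. The number was 4 with a pseudocount of 1 and with quantile normalization, where FADS2 was at -0.30 and -0.32. SCD, INSIG1, SREBF1 and EBP stayed past the threshold in every alternative that gave them a value, other than the 1.5-fold threshold for EBP. The unknown depth and the missing replicate values limit small differences most, those of EBP and FADS2 among them.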
